A study of Mus musculus with 12 samples.

Results

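A total of 3213 DNase I hypersensitive sites (DHSs) were open in all 3 libraries of LSK cells cultured without Notch ligand (IgG) and in none of the other 9 libraries. They were selected by peak presence: the peaks of all 12 libraries on the autosomes and the X chromosome were merged where they overlapped by at least 1 bp, which gave 170207 consensus DHSs, and IgG-only DHSs were those with a peak in every IgG library and no peak elsewhere. This is 1.89% of the consensus and 14.6% of the 22003 DHSs (12.9% of the consensus) that had a peak in all 3 IgG libraries. By the same rule, 1104 DHSs (0.649%) were open in the 3 LSK libraries alone, and 168 (0.0987%) in all LSK and IgG libraries but in no library from Delta1 culture. Presence in a list was the selection, so these counts are a description and carry no test.

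The libraries came from C57BL/6J mouse cells. LSK cells (3 libraries) are lineage-depleted marrow stem and progenitor cells carrying SCA1 and KIT, taken fresh from marrow. For the IgG group (3 libraries), LSK cells were cultured on immobilized human IgG1 with Retronectin and the 4GF cytokines (SCF, FLT-3 ligand, IL-6 and IL-11), with no Notch ligand. DN1 (2 libraries), DN2a (2) and DN2b (2) are successive early T cell precursors, sorted by KIT, CD44 and CD25 from LSK cells cultured on the Notch ligand Delta1ext-IgG with the same cytokines and Retronectin, to which IL-7 was added for both DN2 stages. The IgG libraries thus differ from LSK in culture, from the DN libraries in ligand and sorting, and from both DN2 stages also in IL-7. No sort of the IgG libraries and no time in culture for them is given in the sources used here. These differences cannot be told apart. The IgG lists were also the shortest, with 32952 to 37511 peaks against 53869 to 111582 in the other libraries. Read depth is unknown. Replicate numbers are names in order of deposit, since the labels give none, and do not pair libraries. The score of each peak was used only as a percentile within its own list.

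Without Notch ligand, multipotent progenitors in cytokine culture are known to enter myeloid rather than T cell development. C/EBP factors are basic leucine zipper proteins needed to form granulocyte and monocyte precursors, and they act at distal elements together with PU.1, an ETS factor of myeloid cells and early T cell precursors. AP-1 (dimers of FOS and JUN proteins) and the large MAF proteins are further leucine zipper factors of activated and mature myeloid cells. In the IgG libraries, the promoters of 20 neutrophil markers were open at 11, 9 and 11 genes (replicates 1, 2 and 3), against 2 to 3 in LSK and 2 to 6 in the Delta1 cultures. Without peaks in IgG-only DHSs, which the selection made absent elsewhere, it was 6, 5 and 6 genes, within the range of the Delta1 cultures and above LSK, a count added after seeing the data. Over all protein-coding genes, 38.1% of promoters were open in all 3 IgG libraries and 47.8% in all 3 LSK libraries. Of 20 T lineage markers, 1, 1 and 2 promoters were open in IgG, 3 to 5 in LSK and 7 to 16 in the Delta1 cultures. The IgG libraries were also lowest for other lists. Of 12 NK and innate lymphoid genes, 2 were open in IgG, 4 to 6 in LSK and 7 to 10 in the Delta1 cultures. For 18 erythroid and megakaryocyte genes it was 2 to 3, 8 to 9 and 5 to 9. The macrophage markers showed no such gap, with 12, 9 and 12 of 22 open in IgG and 8 to 11 elsewhere. For some other myeloid and innate lists the lowest count was also in an IgG library. Of 27 myeloid transcription factor genes, 20, 20 and 17 were open in IgG, 21 in LSK and 20 to 23 in the Delta1 cultures. For 27 innate immune receptors it was 14, 12 and 15, against 15 to 16 and 14 to 21. Cytokines, chemokines and their receptors had 22, 17 and 18 of 30, against 16 to 21 elsewhere. Lysosomal genes had 17, 16 and 16 of 20, against 15 to 18.

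The sequences of several IgG-only DHSs are shown as examples of the 3 motifs with the highest share relative to all DHSs (C/EBP, AP-1 and MAF), taken from the members with the highest score percentiles that are reported here and were not already shown for another motif, followed by 2 promoter members with a C/EBP match that were added after their values were seen. All are the plus strand of the mouse genome (RefSeq, GRCm38.p6, the assembly behind mm10), 5′ to 3′, over the whole DHS. Capitals mark the matches to the motif named, on either strand. The first C/EBP member (chr12:73755777-73755966) lies in an intron of Prkch, 146 kb upstream of the Hif1a start site, and the second (chr6:52861377-52861546) in an intron of Jazf1.
Prkch intron, C/EBP: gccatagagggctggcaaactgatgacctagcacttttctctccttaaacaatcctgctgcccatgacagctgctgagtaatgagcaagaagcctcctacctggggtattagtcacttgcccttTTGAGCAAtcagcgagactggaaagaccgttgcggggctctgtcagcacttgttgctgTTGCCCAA
Jazf1 intron, C/EBP: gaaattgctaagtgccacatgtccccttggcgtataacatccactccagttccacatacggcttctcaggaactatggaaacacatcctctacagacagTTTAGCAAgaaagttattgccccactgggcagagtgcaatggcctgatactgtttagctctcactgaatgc
The AP-1 member lies in an intron of Gm20431 (chr2:167649377-167649546).
Gm20431 intron, AP-1: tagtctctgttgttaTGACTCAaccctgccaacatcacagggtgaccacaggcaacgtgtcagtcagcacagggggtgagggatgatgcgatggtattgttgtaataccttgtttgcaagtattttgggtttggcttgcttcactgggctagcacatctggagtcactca
The MAF members lie between genes, 25 kb upstream of Zcchc2 (chr1:105965277-105965466) and 165 kb upstream of Serpine2 (chr1:80025957-80026126). Both printed sequences also hold C/EBP letters, not capitalized here. In the Serpine2 member the marked match overlaps the AP-1 letters TGAGTCA.
Zcchc2 upstream, MAF: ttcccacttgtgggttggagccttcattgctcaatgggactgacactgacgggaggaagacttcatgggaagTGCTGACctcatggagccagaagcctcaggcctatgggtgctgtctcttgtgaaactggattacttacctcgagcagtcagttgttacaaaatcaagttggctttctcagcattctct
Serpine2 upstream, MAF: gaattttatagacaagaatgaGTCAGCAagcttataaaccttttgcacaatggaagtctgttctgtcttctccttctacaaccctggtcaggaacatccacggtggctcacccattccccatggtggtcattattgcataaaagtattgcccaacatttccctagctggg
The promoter members end before the start sites of Sirpa (chr2:129592037-129592186, centre 0.723 kb upstream) and of Hal (chr10:93488537-93488706, centre 0.146 kb upstream).
Sirpa promoter, C/EBP: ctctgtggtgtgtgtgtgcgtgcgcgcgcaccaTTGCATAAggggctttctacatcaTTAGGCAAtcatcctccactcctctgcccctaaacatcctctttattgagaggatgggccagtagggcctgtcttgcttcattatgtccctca
Hal promoter, C/EBP: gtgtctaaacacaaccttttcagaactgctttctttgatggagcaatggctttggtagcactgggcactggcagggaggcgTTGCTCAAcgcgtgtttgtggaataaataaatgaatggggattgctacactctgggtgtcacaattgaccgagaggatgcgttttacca

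The C/EBP letters (TTGCNNAA, searched on both strands in the central 150 bp) were present in 1345 of the 3213 IgG-only DHSs, or 41.9% (95% Wilson interval 40.2 to 43.6%). They were present in 7.91% of all consensus DHSs, in 7.88% (6.43 to 9.62%) of LSK-only DHSs and in 14.8% of all DHSs open in the 3 IgG libraries, so the share in IgG-only DHSs was 5.29 times that of the consensus. In the 168 DHSs shared by LSK and IgG but closed in the Delta1 cultures it was 45.8% (38.5 to 53.4%), an interval that overlaps that of the IgG-only DHSs. AP-1 letters (TGANTCA) were found in 18.2% (16.9 to 19.5%) of IgG-only DHSs against 7.66% of all DHSs, and MAF letters (TGCTGAC, whose end can form the start of an AP-1 match) in 4.01% (3.39 to 4.75%) against 3.04%. LSK-only DHSs held the MAF letters in 4.08% (3.06 to 5.41%), as often as IgG-only DHSs within these intervals. The sets of all consensus DHSs and of all DHSs open in IgG include the IgG-only DHSs. These intervals cover counting error only and treat DHSs as independent. The plot of motif shares sets 4 groups of DHSs side by side.

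**Figure D1:**
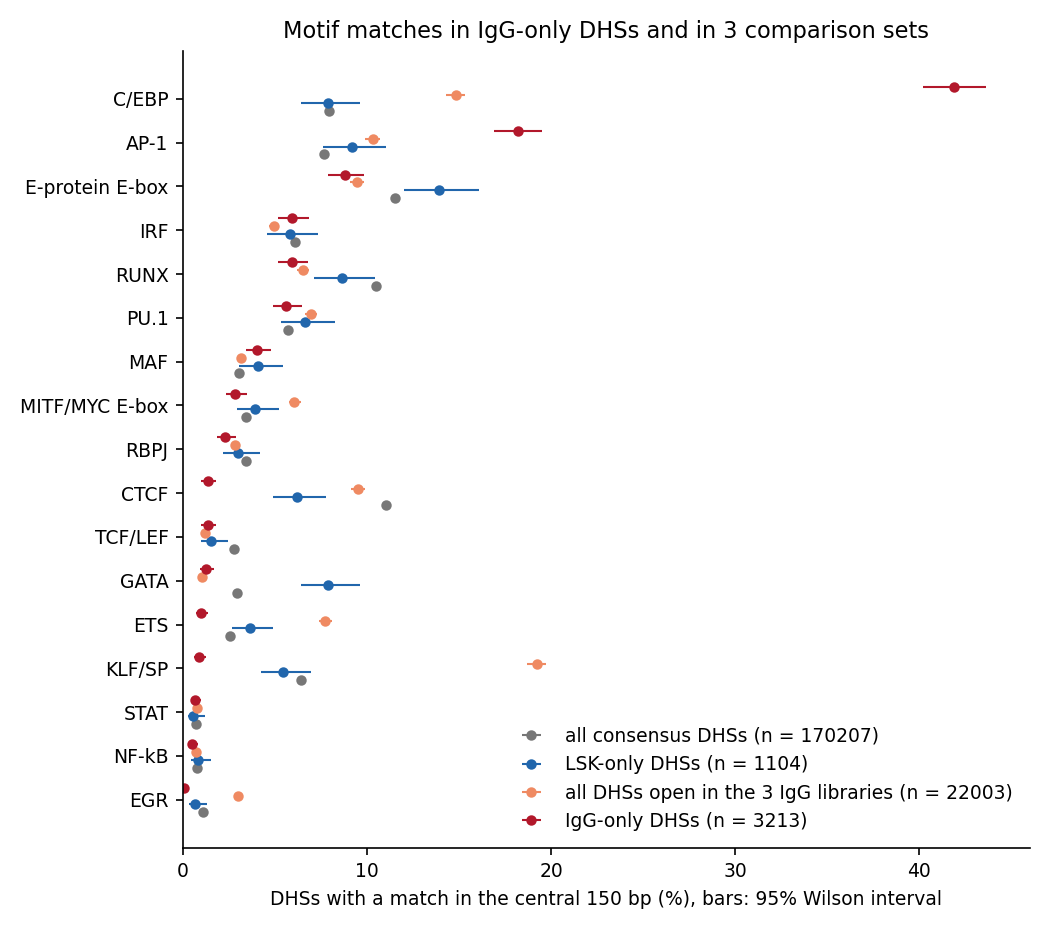
Share of DHSs with a match to each of 17 motifs (x axis, percent; bars, 95% Wilson interval) in IgG-only DHSs, all DHSs open in the 3 IgG libraries, LSK-only DHSs and all consensus DHSs. C/EBP stands at 41.9% in IgG-only DHSs and at 7.88 to 14.8% in the other sets, and KLF/SP and CTCF are lowest in IgG-only DHSs.

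PU.1 letters (GAGGAAGT) were in 5.6% (4.86 to 6.45%) of IgG-only DHSs and in 5.7% of all DHSs, and IRF letters (GAAANNGAA) in 5.94% and 6.06%. Motifs of promoters and of domain boundaries were scarce: KLF/SP (GGGCGGG) was in 0.84% of IgG-only DHSs against 6.4% of all, EGR (GCGNGGGCG) in 1 of 3213 DHSs against 1.07%, and CTCF in 1.34% against 11.0%. RUNX (TGTGGTT), bound by factors that act across blood lineages, was in 5.91% against 10.5%, letters of GATA factors (AGATAAG) in 1.24% against 2.95%, and TCF/LEF (CTTTGAT), the letters of the T cell factor TCF1, in 1.34% against 2.79%. These low shares were those of the IgG lists as a whole: all DHSs open in the 3 IgG libraries had 6.49% for RUNX, 1.05% for GATA and 1.17% for TCF/LEF. LSK-only DHSs held the GATA letters in 7.88% (6.43 to 9.62%). The share with either C/EBP or AP-1 was 53.3% in IgG-only DHSs and 14.9% in the consensus. C/EBP and AP-1 occurred in the same DHS in 217 members (6.75%), with AP-1 in 16.1% of members with C/EBP and in 19.6% of those without. No match to any of the 17 motifs was found in 29.3% of IgG-only DHSs, against 38.1% of the consensus.

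Within the C/EBP letters, forms with G as the sixth base stood apart from the rest. Matches reading TTGCNCAA numbered 23.3 per 100 IgG-only DHSs and 2.7 per 100 consensus DHSs, a ratio of 8.64, and TTGCNTAA gave a ratio of 7.17 (14.0 against 1.96 per 100). TTGCNAAA gave a ratio of 5.11. TTGCNGAA made up 4.79% of the matches in IgG-only DHSs against 20.5% in the consensus, with a ratio of 1.38 (2.43 against 1.76 per 100). Over the 4 forms of each kind the ratio ran from 0 to 1.84 with G, 2.77 to 7.59 with A, 5.49 to 11.4 with T and 6.58 to 10.6 with C, so the last 3 kinds overlapped. Among single forms the most frequent was TTGCACAA, with 353 matches (11.0 per 100 DHSs against 1.04, ratio 10.6), followed by TTGCTCAA with 223 (ratio 8.09) and TTGCAAAA with 195 (ratio 7.01). TTGCGTAA was less frequent, with 58 matches, but had the highest ratio of the 16 forms, 11.4. At the other end, TTGCCGAA gave 0 matches against 130 in the consensus, and TTGCTGAA gave 21 and a ratio of 0.979. Of the printed sequences, the Prkch member holds TTGAGCAA, the reverse complement of TTGCTCAA. It also holds TTGCCCAA at its end, outside the central 150 bp and so not among the matches counted here. The Sirpa member holds TTGCATAA and TTAGGCAA, the reverse complement of TTGCCTAA.

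C/EBP matches lay towards the centre of IgG-only DHSs. Of 1630 matches, 48.8% (46.4 to 51.2%) had their centre within 25 bp of the DHS centre, against 38.8% (38.0 to 39.6%) of the matches in the consensus. In all DHSs open in the 3 IgG libraries it was 42.7% (41.1 to 44.3%), between these values. Members with a match held more than 1 in 19.1% of cases, against 7.56% in the consensus and 12.8% in all DHSs open in the 3 IgG libraries. AP-1 matches fell within 25 bp in 42.5% (38.7 to 46.4%) against 39.9% (39.1 to 40.7%), intervals that overlap. PU.1 matches did so in 42.9% (35.9 to 50.1%) of 182 matches, against 49.1% (48.1 to 50.1%) in the consensus.

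**Figure D2:**
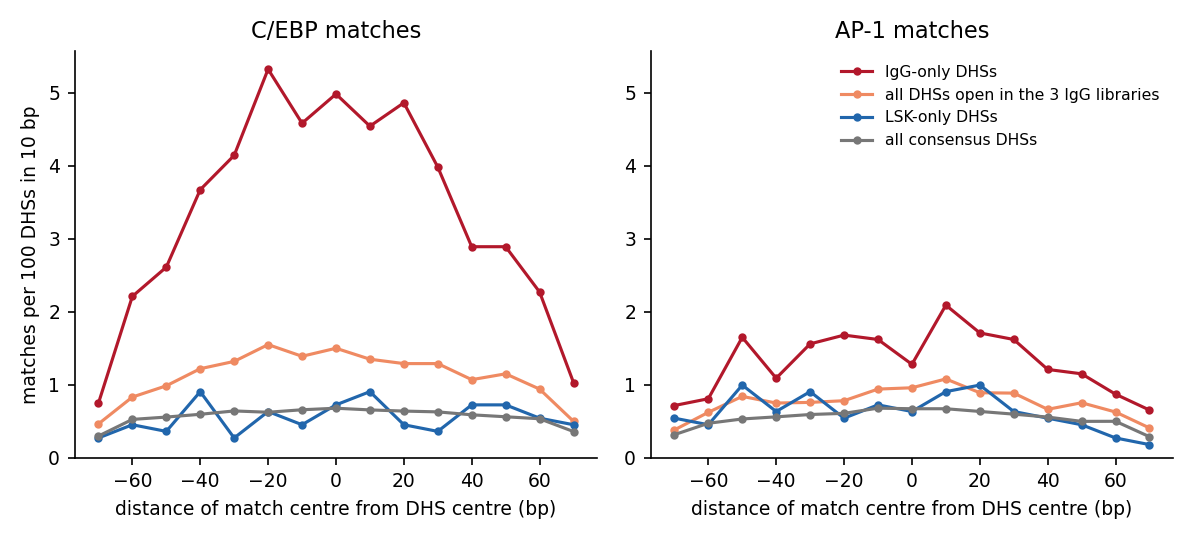
Matches per 100 DHSs in 10 bp steps (y axis) by distance of the match centre from the DHS centre (x axis, bp), for C/EBP (left) and AP-1 (right) in 4 sets of DHSs. C/EBP matches in IgG-only DHSs form a broad central rise, with 48.8% within 25 bp of the centre.

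Whether this composition extended to the rest of the IgG lists was tested on peaks that the selection did not take. These still include IgG peaks with no peak in the other 9 libraries that missed the selection only for lack of a peak in every IgG library. The test is therefore not independent of peak presence. Peaks in IgG-only DHSs were left out, every list was shortened to its 29697 highest-scoring remaining peaks, and 17 motif shares and the GC content were compared between the 3 IgG and the other 9 libraries by a two-sided exact permutation test over all 220 divisions (smallest possible p = 0.00909), with Benjamini-Hochberg adjustment over the 18 values. Of these, 8 (44.4%) passed an adjusted p of 0.05. C/EBP letters were in 14.0%, 11.7% and 12.1% of the IgG peaks (12.6% ± 1.22, SD, n = 3). They were in 6.04% ± 0.0426 of LSK peaks (n = 3), 5.07% ± 0.119 of DN1 peaks, 4.89% ± 0.14 of DN2a peaks and 4.58% ± 0.0119 of DN2b peaks (n = 2 each). All 3 IgG libraries were above all others, with a difference of 7.34 percentage points in mean share (exact permutation p = 0.00909, adjusted p = 0.0234). AP-1 letters were in 9.6%, 8.81% and 11.7% of the IgG peaks, against 6.44% ± 0.418 in the other 9 (adjusted p = 0.0234, exact permutation test), again with no overlap. MAF was higher too, at 3.18% ± 0.0458 against 2.89% ± 0.106 (adjusted p = 0.0234, exact permutation test), but by 0.09 points (adjusted p = 0.164) with the lists as deposited and by 0.00262 points (adjusted p = 0.909) in the upper 50% of each list. Without IgG replicate 1, 2 or 3 the C/EBP difference was 6.51, 6.8 and 6.61 points, and the adjusted p of C/EBP, AP-1 and MAF in the exact permutation test was 0.0935, 0.0818 and 0.0935. Those smaller designs cannot go below an unadjusted p of 0.0364.

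The values below the other libraries were GATA (1.14% ± 0.0917 against 2.45% ± 0.192) and the E-protein E-box CAGCTG (9.67% ± 0.536 against 12.1% ± 0.972), both at an adjusted p of 0.0234 in the exact permutation test, and RUNX. RUNX letters were in 6.1%, 6.08% and 7.83% of IgG peaks and in 10.9% ± 2.24 of the others (exact permutation adjusted p = 0.0409), and the groups overlapped: the highest IgG library, at 7.83%, was above the lowest LSK library, at 7.66%. Its adjusted p rose to 0.0545 when any 1 library other than LSK replicate 1 or an IgG library was left out, and to 0.0818 to 0.164 without 1 IgG library, with differences from -4.82 to -3.99 points. The difference was -1.32 points against LSK alone (exact permutation adjusted p = 0.36) and -5.72 against the Delta1 cultures alone (adjusted p = 0.0429), comparisons chosen after seeing the data. GATA and the E-box had 0.0935, 0.0818 and 0.0935 without IgG replicate 1, 2 or 3. The ETS letters (CCGGAAG) and GC content were also lower in IgG, by 0.708 and 1.21 percentage points, but were higher by 1.92 and 1.42 points with the lists as deposited. KLF/SP, at -0.645 points without passing, was then higher by 5.18 points (adjusted p = 0.0126, exact permutation test). PU.1 was in 7.14% ± 0.681 of IgG and 6.12% ± 1.33 of other peaks and did not pass (exact permutation p = 0.255, adjusted p = 0.365). By group it ran from 7.95% ± 0.452 in DN1 to 4.37% ± 0.0667 in DN2b. Before shortening, the IgG lists still held peaks of 2760 DHSs seen in 2 IgG libraries and of 6498 seen in 1 IgG library with no peak elsewhere. C/EBP letters were in 35.3% and 25.4% of these, above the IgG mean of 12.6%, so those that remained would raise the IgG share. How many remained in the shortened lists was not counted, and the test was not run without them.

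**Figure D3:**
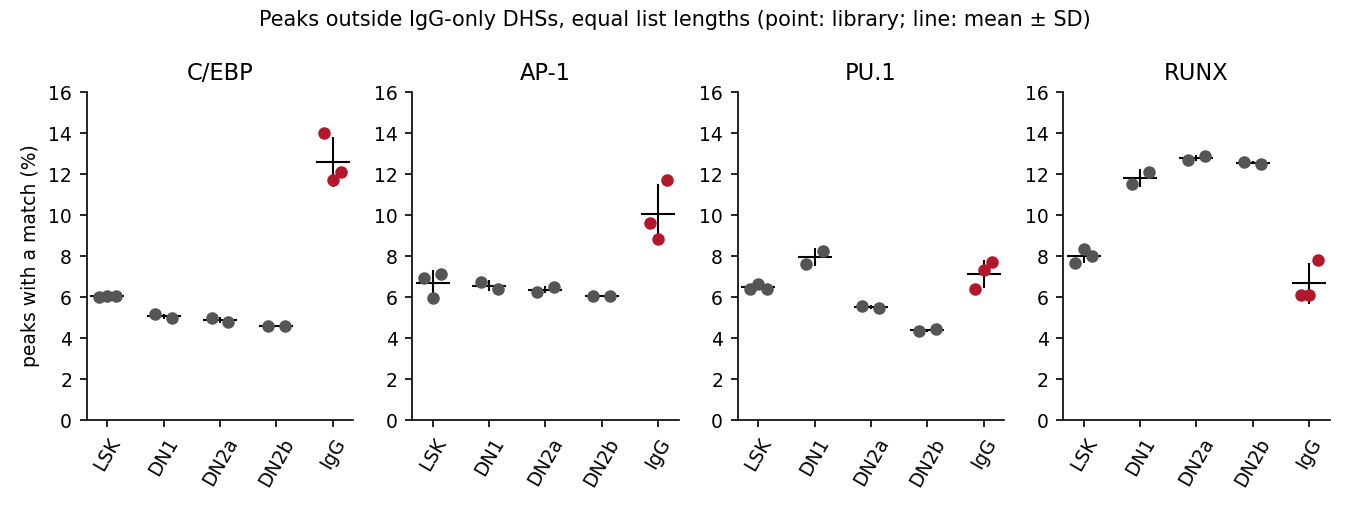
Share of peaks with a match (y axis, percent) to C/EBP, AP-1, PU.1 and RUNX letters in each library (points) with the group mean ± SD, after peaks in IgG-only DHSs were left out and lists were shortened to 29697 peaks. The 3 IgG libraries lie at 11.7 to 14.0% for C/EBP, above the 4.57 to 6.07% of the other 9.

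IgG-only DHSs lay away from promoters. The centre of 101 of them (3.14%, interval 2.59 to 3.81%) was within 1 kb of the start of a protein-coding gene (GENCODE M21), against 16.5% of all consensus DHSs, 38.5% of DHSs open in the 3 IgG libraries and 7.52% (6.11 to 9.23%) of LSK-only DHSs. For IgG-only DHSs it was 5.16% at equal list lengths, 4.88% in the upper 50% of each list and 5.17% with every protein-coding transcript start. Introns held 1715 (53.4%), the space between genes 1292 (40.2%) and exons 206 (6.41%). The median distance to a start was 27.1 kb (quartiles 9.36 to 66.6 kb), against 5.21 kb for all DHSs open in the 3 IgG libraries and 49.9 kb for LSK-only DHSs. Median GC content was 45.3%, below the 49.3% of the consensus. Repeats took up 50% or more of the sequence in 3.49% (2.91 to 4.18%) of IgG-only DHSs and in 6.91% of the consensus. The share was lower in all DHSs open in the 3 IgG libraries, at 2.5% (2.31 to 2.72%), and in LSK-only DHSs, at 1.45% (0.894 to 2.34%). By chromosome, the share of the DHSs open in the 3 IgG libraries that were IgG-only ran from 10.6% on chromosome 17 to 18.5% on chromosome 3, and was 11.6% on the X chromosome.

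Peaks of IgG-only DHSs were of middle rank in their lists. Their median score percentile was 61.4 in IgG replicate 1, 54.9 in replicate 2 and 52.8 in replicate 3 (mean 56.4 ± 4.51, SD, n = 3). All DHSs open in the 3 IgG libraries had 67.8 ± 2.09, and those outside promoters 61.0 ± 2.06. IgG replicate 1, but not 2 or 3, lay within the latter range. Taking each DHS at its median over the 3 libraries, IgG-only DHSs ran from 5.01 to 97.9, with 664 (20.7%) above the 75th percentile, 85 above the 90th and 318 (9.9%) below the 25th. Percentiles correlated between replicates across the 3213 DHSs at a Spearman rho of 0.75 (replicates 1 and 2), 0.63 (1 and 3) and 0.60 (2 and 3), which describes DHSs and not independent replicates. The share with C/EBP letters was 37.8% (34.5 to 41.2%) in the lowest 804 DHSs by percentile, 39.6% and 42.5% in the next sets of 803, and 47.6% (44.1 to 51.0%) in the highest 803. AP-1 showed no such order, with 19.4%, 15.2%, 18.3% and 19.8% in the same sets.

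**Figure D4:**
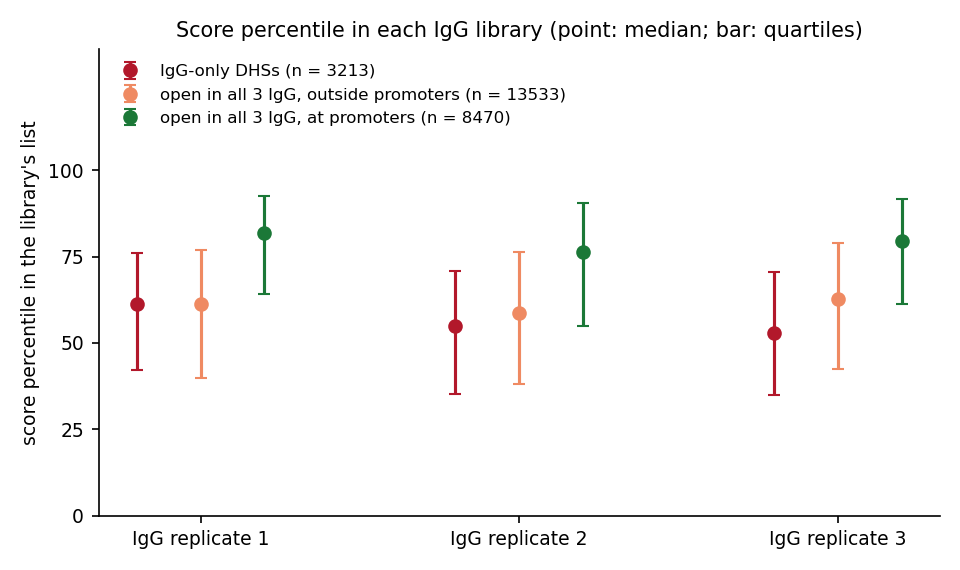
Score percentile within the list (y axis) in each IgG library for IgG-only DHSs and for all DHSs open in the 3 IgG libraries, split by promoter (points, medians; bars, quartiles). IgG-only DHSs have medians of 61.4, 54.9 and 52.8, below promoters in every library.

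The 10 IgG-only DHSs with the highest median percentile lay near or in genes of varied function. The highest (chr1:193242397-193242566, percentiles 97.9, 98.1 and 94.9 in replicates 1 to 3) lies in an untranslated part of Lamb3, a laminin chain gene, and 21.6 kb inside Hsd11b1, which encodes a glucocorticoid-activating enzyme. It was followed by the printed Prkch and Jazf1 members, with 97.5, 97.5 and 95.1 and with 97.3, 98.0 and 93.1. Others were 10.2 kb upstream of the zinc finger gene Zfp503, 14.4 kb upstream of Serpinb2 (plasminogen activator inhibitor 2, a macrophage product), in introns of Gm20431 and Rapgef4, and in a coding exon of Dlst. C/EBP letters were in 5 of the 10.

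The edges of the selection show how gradual it was. DHSs open in all 3 IgG libraries and in exactly 1 other numbered 776, and those open in 2 IgG libraries and no other numbered 2760, beside the 3213 that qualified. C/EBP letters were in 34.3% (31.0 to 37.7%) of the first and in 35.3% (33.5 to 37.1%) of the second, with 25.4% of those seen in 1 IgG library alone. As the number of other libraries with a peak rose, the share went from 41.9% at 0 through 34.3%, 27.1%, 29.8%, 18.5%, 19%, 13.3%, 14.5% and 12.1% at 1 to 8 to 5.77% at all 9, or 8.52% there outside promoters. It was lower at each step except at 3, 5 and 7. AP-1 letters were in 18.2% at 0 and 21.5% at 1, and then did not rise at any step, reaching 12.6% at 8 and 5.73% at 9. PU.1 letters were in 5.6% at 0, in 15.0% at 4 and in 4.99% at 9. The promoter share rose from 3.14% to 22.9% at 8 and 58.0% at 9. The median over DHSs of the IgG percentile was 55.6 at 0, between 56.4 and 59.8 for 1 to 8 and 74.5 at 9.

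**Figure D5:**
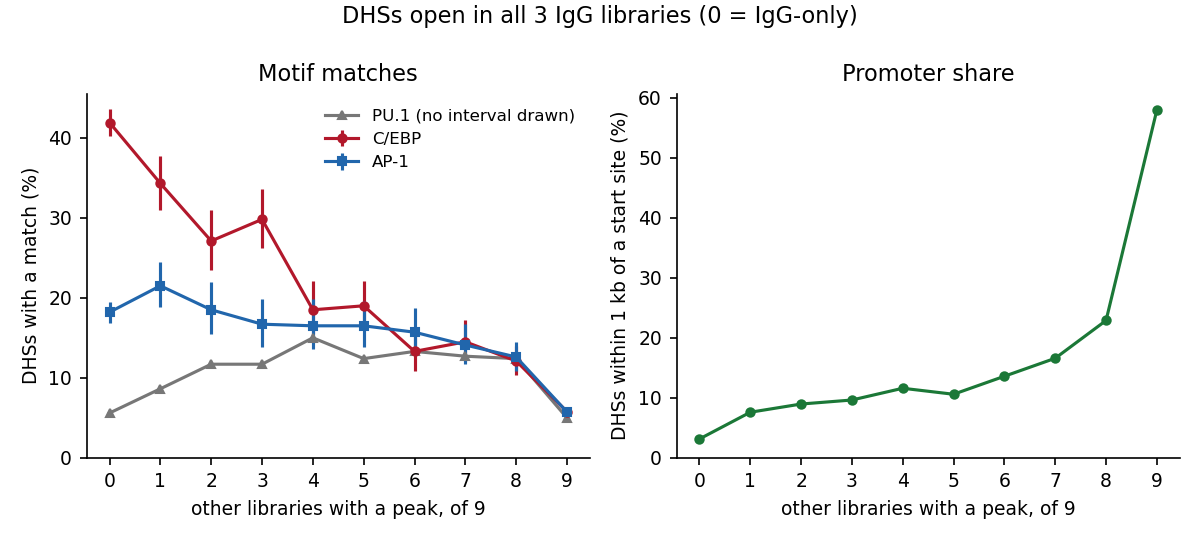
DHSs open in all 3 IgG libraries by the number of the other 9 libraries with a peak (x axis; 0 is IgG-only): share with C/EBP, AP-1 and PU.1 letters (left, percent; bars, 95% Wilson interval, not drawn for PU.1) and share within 1 kb of a start site (right, percent). C/EBP falls from 41.9% to 5.77% while the promoter share rises from 3.14% to 58.0%.

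Of the 776 DHSs with 1 other library, 256 (33.0%) were in DN1 replicate 1 and 144, 107 and 101 in the LSK replicates 3, 2 and 1, against 88 in DN2b replicate 2, 54 in DN1 replicate 2, 16 in DN2a replicate 1 and 5 each in the remaining DN2 libraries. DN2b replicate 2 had the longest list (111582 peaks) and DN1 replicate 1 the next (96436). Many IgG-only DHSs lay beside chromatin open elsewhere: the nearest peak of another library was a median of 2.91 kb away, within 1 kb for 760 (23.7%) and within 150 bp for 146 (4.54%). At equal list lengths the share within 1 kb was 15.2% (14.2 to 16.2%). C/EBP letters were in 41.3% of the 760 with such a peak within 1 kb and in 42.0% of the rest. Of the 472 with no such peak within 10 kb, 47.9% held them.

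IgG-only DHSs were spread over many genes. Their nearest protein-coding starts belonged to 2375 genes (10.9% of 21755), of which 562 were nearest to 2 or more DHSs and 22 to 5 or more. A nearest gene need not be the gene an element acts on. The promoters of these genes were open in all 12 libraries in 45.9% (against 36.2% of all genes) and in none in 20.3% (against 37.5%). Foxp1, a forkhead transcription factor gene, was nearest to 9 IgG-only DHSs, all in its introns, with median percentiles from 13.1 to 80.0 and C/EBP letters in 3. Of 108 consensus DHSs nearest to Foxp1, 17 were open in the 3 IgG libraries. Trps1, a zinc finger repressor gene, also had 9, of 71 consensus DHSs and 15 open in IgG.

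Notch2, which encodes a receptor for Delta ligands, had 7 IgG-only DHSs among the 9 nearest to it that were open in all IgG libraries. They lay from 21.9 kb upstream to 55.9 kb inside the gene, and its promoter was open in all 12 libraries. The highest of them, in an exon of a non-coding transcript at 18.9 kb, had percentiles of 81.7, 80.0 and 78.0, and the lowest, 21.9 kb upstream, 37.5, 54.9 and 50.9. St3gal1 (a sialyltransferase), Gm5426 (a predicted gene) and Bcl2l11 (the pro-apoptotic protein BIM) had 7 each. Agtpbp1 (a tubulin carboxypeptidase), Maf (a macrophage transcription factor), Bcl2 (an anti-apoptotic protein) and Zeb2 (a zinc finger repressor) had 6 each, as did 1 further gene that is not described. These 10 genes lie in wide intervals rich in DHSs, with 34 to 111 consensus DHSs nearest to each, and for Maf 6 of 111 were IgG-only.

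Clustering was sparse. When DHSs were chained at gaps of up to 25 kb, 2365 (73.6%) stood alone, and 164 (5.1%, 4.4 to 5.92%) fell into 52 clusters of 3 or more, the largest of which held 4. The clustered share was 10.4% without IgG replicate 2 and 8.49% without IgG replicate 3. LSK-only DHSs, of which there were fewer, were in such clusters in 1.09% (0.623 to 1.89%) of cases. Of the 8 clusters of 4, the 5 with the highest median percentiles are described. The first spanned 36.1 kb over S100a8 and S100a9 (chr3:90659757-90695886), the subunits of calprotectin, an abundant neutrophil protein. Its 4 DHSs had median percentiles of 82.5, 93.5, 89.1 and 93.8, held no C/EBP letters, and were the only DHSs of the 10 in the span that were open in all IgG libraries. At Mpeg1 and Pfpl (chr19:12439637-12463986), the first of which encodes the macrophage pore-forming protein perforin-2, the values were 69.5, 80.9, 88.1 and 77.2, with C/EBP in 3. Upstream of Thbs1, the thrombospondin 1 gene, 4 DHSs lay in introns of the transcript Gm13986, at 122 to 146 kb, with 83.3, 80.3, 75.1 and 70.8. Sirpa, the myeloid receptor for CD47, had 94.7, 75.2, 72.6 and 57.1 within 9.31 kb, with C/EBP in 3. The fifth cluster, of 4 of the Notch2 DHSs, spanned 45 kb.

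Genes of neutrophils and macrophages were often nearest to IgG-only DHSs. Against 10.9% of all protein-coding genes, 10 of 20 neutrophil markers (50%) and 9 of 22 macrophage markers (40.9%) had at least 1. LSK-only DHSs were nearest to 0 genes of either list and to 4.44% of all genes. Of the 24 DHSs nearest to neutrophil markers that were open in the 3 IgG libraries, 12 (50%) were IgG-only, with a median percentile of 81.9, against 14.6% over all genes. For macrophage markers it was 11 of 39 (28.2%), with a median of 69.3. The lists were chosen with earlier results of these data known, and no test was run on them. Shares above 14.6% were also found for several lists, among them innate immune receptors (13 of 27 genes, 31.6% of their IgG DHSs), lysosomal genes (11 of 20, 25.9%), cytokines, chemokines and their receptors (14 of 30, 22.0%) and myeloid transcription factors (11 of 27, 16.7%, near the share over all genes). Stem and progenitor genes had 7 of 20 (21.7% of their IgG DHSs) and the Notch pathway 3 of 18 (23.7%). Of the 9 IgG-only DHSs of the Notch pathway, 7 were nearest to Notch2, with 1 each for Maml3 and Rbpj. For several other lineages the share of genes was near that of all genes: mast cell and basophil 2 of 18 genes (11.1%), eosinophil 1 of 9 (11.1%), T lineage 2 of 20 (10%) and NK and innate lymphoid 2 of 12 (16.7%). Of their DHSs open in the 3 IgG libraries, 2 of 8 (25%), 1 of 7 (14.3%), 2 of 11 (18.2%) and 5 of 30 (16.7%) were IgG-only. The dendritic cell list had 1 of 15 genes, erythroid and megakaryocyte 1 of 18, and B lineage 0 of 13.

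Among neutrophil genes, Lcn2, the granule protein lipocalin 2, had 2 IgG-only DHSs. That in its coding exon, 0.36 kb past the start, had percentiles of 83.5, 83.3 and 50.9 and held C/EBP letters. The DHS 0.005 kb upstream of the start of Ngp, another granule protein gene, had 93.5, 92.9 and 48.9. Among macrophage genes, Fcgr4, an activating IgG receptor, had 2 (75.1, 81.7 and 72.6 for the higher), the phagocyte integrin ligand gene Spp1 had 2 at 27.1 and 38.6 kb, and Gpnmb and Csf1r (the receptor for macrophage colony-stimulating factor) had 1 each. The Csf1r DHS lay 25.8 kb upstream in an intron of Pdgfrb, with 71.6, 70.8 and 81.9. Of the innate receptors, Tlr4, the lipopolysaccharide receptor, had 2 intronic DHSs (86.1, 84.7 and 82.5 for the higher) that were 24.0 and 29.0 kb from any peak of another library. Clec5a, a myeloid lectin, had 2 upstream, and Tlr6 1. The Sirpa cluster has been given.

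Of the transcription factor genes, Pparg, a regulator of lipid genes in macrophages, had 3 intronic DHSs, all of its DHSs open in IgG, and its promoter was open in no IgG library, 1 LSK library and all 6 Delta1-culture libraries. Egr2 had 2 and Rara, a retinoic acid receptor, 1 at 79.1. Cxcr4, the CXCL12 receptor, had 4 with medians from 9.68 to 80.5, Csf1 had 3, and Il1r2 and Il1b (interleukin 1β) had 2 each. In the lysosome list Hexa had 3, Lamp2 2, and Psap and Ctsd 1 each. Of the stem and progenitor genes Runx1 had 4, from 35.6 to 382 kb from its start, and Erg, Myb and Kit had 1 each. The Erg DHS, in an intron 122 kb inside, ranked high in each list, with 95.6, 94.3 and 87.9, and lay 0.57 kb from a peak of another library. The Erg promoter was open in no IgG or LSK library and in all 6 from Delta1 culture. For Erg and Pparg, as for all genes, only the 5′ end of the gene record was used, so other starts are not covered. Nfil3, a basic leucine zipper factor gene, had 3 (91.8 for the highest) and Id2 2. In the remaining lists Maml3 and Rbpj (Notch cofactors), Batf3, Hdc, Cma1, Prg3, Vwf, Cd2 and Zap70 had 1 each, with medians from 17.9 (Cma1) to 81.7 (Cd2).

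The 101 promoter members were at 101 genes, and at 42 of these no other library had a peak within 1 kb of the start used, which is the outer end of the gene record. The observed/expected CpG ratio over 2 kb around the start was 0.38 ± 0.243 (SD over the 101 promoters), against 0.647 ± 0.158 for the 7883 promoters open in all 12 libraries and 0.247 ± 0.175 for the 8149 with no peak. It was 0.454 ± 0.251 over all protein-coding genes and 0.478 ± 0.167 for the 82 promoters with an LSK-only DHS. Among the 10 promoter members with the highest percentiles, all but Sirpa lacked a peak of another library at the promoter. Hal encodes histidine ammonia-lyase (96.3, 94.3 and 91.4 in replicates 1 to 3). S100a9 had 93.8, 97.8 and 61.4, S100a8 93.5, 97.7 and 69.3, and Ngp has been given. Slc11a1, the phagosome metal transporter NRAMP1, had 89.7, 89.6 and 89.7. The acute phase genes Hp (haptoglobin) and Orm1 (orosomucoid 1) had 91.5, 84.0 and 88.8 and 88.1, 89.1 and 71.6, both with C/EBP letters. Rnf11, a ubiquitin ligase gene, had 91.2, 92.5 and 90.6, and Wdtc1 85.1, 88.5 and 82.5. C/EBP letters were in 5 of these 10 promoter members.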

How the data were processed

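DNase-seq was done on 12 libraries in 5 groups (3 LSK, 2 DN1, 2 DN2a, 2 DN2b, 3 IgG), taken from the labels. According to the methods the authors trimmed adapters, aligned read pairs to mm10 (BWA 0.7.12 and SAMtools 1.2 in the submitters' processing notes) and used hotspot2 for peaks (false discovery rate 0.05). Each deposited list holds 150 bp peaks with 1 score, a whole number from 1 to 150 of unstated meaning that the authors' pipeline set, used here only as a rank within the list. No read totals were given, so depth is unknown, and sites just under the threshold in another library count as absent there. DN cells came from the same LSK isolates, with no label of which, so the libraries of these groups may not be independent.

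Peaks were merged at 1 bp of overlap, and IgG-only DHSs were selected on peak presence. On chromosomes Y and M, left out, 91 merged regions held 0 IgG-only DHSs. Gene starts were the 5′ ends of 21755 protein-coding genes of GENCODE M21. Motifs were searched as fixed letters on both strands in 150 bp of GRCm38.p6. The library test was a two-sided exact permutation test (scipy 1.17.1) with Benjamini-Hochberg adjustment; the procedures were tested on simulated data. Named were the 10 highest members and promoter members, 5 of the 8 largest clusters (ties by percentile), the 10 genes with most members and up to 4 genes with a member in each of 15 lists (289 of 290 entries matched). Of the 10 highest members, 2 are not reported here. The members, lists and motifs were chosen with earlier results of these data known. Alternatives were equal list lengths, the upper 50% of each list, 2 other merges, other windows and gaps, and each library left out; comparisons with LSK alone and with the Delta1 cultures alone were chosen after seeing the data.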

Additional observations from a re-analysis of the deposited data

How the results depend on the processing

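The number of IgG-only DHSs was 4803 at equal list lengths (94.2% of the 3213 still in, making up 63.0% of the new set) and 1904 in the upper 50% of each list (37.8% still in). Leaving out 1 library gave 3219 to 4486. The promoter share was 5.16% at equal list lengths, 4.88% in the upper 50%, 1.84% within 500 bp, 8.65% within 2.5 kb and 5.17% with every protein-coding transcript start, and 3.15 to 3.37% with a library left out. The C/EBP share was 38.0%, 44.0% and, in 300 bp windows, 49.6%, and 40.4 to 42.0% with a library left out. Clusters of 3 or more held 10.8% at equal list lengths, 2.12% with gaps of 10 kb, 14.4% with gaps of 50 kb, and 5.09 to 10.4% with a library left out.

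In the library test, 14 of the 18 values passed with lists as deposited, 13 in the upper 50% and 6 in 300 bp windows, 10 against the Delta1 cultures alone, and 0 to 8 with a library left out. Without 1 IgG library (55 divisions, smallest exact permutation p = 0.0364) 0 passed adjustment, with 7 to 8 at an unadjusted p under 0.05 and C/EBP still higher by 6.51 to 6.8 points. Against LSK alone (smallest p = 0.1 in the exact permutation test) 0 could pass, at adjusted or unadjusted p, and C/EBP was higher by 6.55 points. ETS and GC content turned to 1.92 and 1.42 points higher in IgG with the lists as deposited and to 2.17 and 1.72 in the upper 50%. KLF/SP and EGR, which had not passed, turned to 5.18 and 0.801 points higher with the lists as deposited and to 7.38 and 1.02 in the upper 50%, and passed. The cause was not tested. RUNX lost its call in 13 of 17 alternatives and MAF in 6, with no change of direction. No paired analysis was possible because the labels carry no replicate numbers and do not say which libraries share an isolate.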

Other observations

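The IgG libraries ranked the neutrophil sites differently. Of the 12 IgG-only DHSs nearest to neutrophil markers, 8 had their lowest percentile in IgG replicate 3, where the median was 62.1, against 84.3 in replicate 1 and 81.6 in replicate 2. Over all 3213 DHSs replicate 3 was the lowest for 41.7%, and the medians were 52.8, 61.4 and 54.9. For the 11 DHSs nearest to macrophage markers the lowest value was in replicate 2 for 8 and in replicate 3 for 2, with medians of 67.7, 62.3 and 71.6 in replicates 1, 2 and 3. Mmp8, a neutrophil collagenase gene, went against this, with 83.5, 80.0 and 90.2 at its promoter. This pattern was seen after the values were known and was not tested.

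Myeloid genes outside the rule for named genes were also among the 42 whose promoter had a peak in all IgG libraries and in no other: C3, Fcnb, Ly6c2, Nlrp12, Nos2, Olr1, Siglec1 and Trem2. The same 42 held genes with no such role, such as Adcy10, Galntl5 and Ovgp1.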
